A study of Saccharomyces cerevisiae with 32 samples.

Results

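The comparison described here set a temperature-sensitive mutant of TIF1, tif1-ts (strain NSY21), against wild-type TIF1 (strain NSY20) in budding yeast at 30 °C, which the labels pair with a second comparison of the same strains at 37 °C. It covers 2645 genes, 53.7% of the 4921 in the deposited table for 30 °C and part of the 5328 genes found across the 4 tables of the series. The condition for entry was a mean abundance of at least 100 over mutant and wild type, in footprints and in mRNA alike, an abundance being 2 raised to the deposited log2 value. Of these genes, 2423 reached 100 in all 4 values and 222 had at least 1 value below it. The rule looked at levels and at no difference between the strains. Each genotype is represented by a single strain, so the TIF1 allele cannot be told apart from any other difference between the strains. YGR017W and UBX6 were the last to enter, with footprint means of 100.13 and 100.14, and SNF6 and GPC1 the first left out, with 99.95 and 99.96. Their TE changes were 0.19 and 0.56 inside the limit, and 0.45 and -0.01 outside it.

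Cells of both strains grew in synthetic complete medium, and cycloheximide at 100 µg/ml was added for 2 min ahead of harvest in every culture. Of the 32 samples of the series 8 belong here, namely 2 labelled replicates each of footprints and mRNA of tif1-ts and of footprints and mRNA of wild-type TIF1. Ribosome footprints are the stretches of mRNA that a ribosome shields from nuclease, so their number tracks how many ribosomes sit on the mRNAs of a gene. Dividing by the mRNA level gives the translational efficiency, TE, here the log2 footprint level minus the log2 mRNA level. The deposited table holds 1 log2 value per group and not per replicate. No difference below therefore has a replicate check or a test, and "higher" and "lower" compare 1 value with 1 value.

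eIF4A, which TIF1 encodes together with its near-identical copy TIF2, is the founding DEAD-box RNA helicase. It works as a subunit of eIF4F, beside the cap-binding protein eIF4E and the scaffold eIF4G, where it helps the small ribosomal subunit load at the 5′ end of an mRNA and move to the start codon. It is an essential and very abundant protein in yeast, and a temperature-sensitive allele is one whose product works less well as the temperature is raised. The comparison at 30 °C gives the state of the mutant below 37 °C, the other temperature at which this strain was profiled. What TIF2 allele the strains carry is not given in the labels.

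The steps between the lowest footprint values put the depth of the footprint libraries at about 4.72 M reads for tif1-ts and 5.67 M for wild-type TIF1. From these depths, counting alone gives a footprint change a standard error of 0.09 at the median gene and of at most 0.19, in log2 units. No such estimate could be had for mRNA, whose levels were printed to 1 decimal, which can shift an mRNA or TE change by up to 0.1. Median mRNA changes per chromosome lay between -0.2 and 0.0 over the 16 chromosomes. Of the markers of haploid a cells 5 passed the abundance limit, and STE6, the exporter of a-factor, had log2 mRNA levels of 9.9 in tif1-ts and 9.7 in wild-type TIF1. AGA2, an a-agglutinin subunit below the limit, had mRNA levels of 5.3 in tif1-ts and 6.6 in wild-type TIF1, with a footprint change of -1.27. Neither alpha-cell marker in the table passed the limit. STE3, a pheromone receptor, had mRNA levels of 4.1 in tif1-ts and 4.6 in wild-type TIF1, and SAG1, the alpha-agglutinin, had 6.6 in tif1-ts and 6.4 in wild-type TIF1.

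The mutated gene itself was not analysed here. For its copy TIF2 (YJL138C) the log2 mRNA level was 11.7 in tif1-ts and 11.7 in wild-type TIF1, while the footprint level was 13.62 in tif1-ts against 12.94 in wild-type TIF1. TIF2 thus had a TE change of 0.68 with no mRNA change, and it had a TE change of 0.68 at 37 °C as well. Reads of TIF2 may include reads of TIF1, since the copies are near-identical, so the values may describe their sum. DED1 (YOR204W), the other DEAD-box helicase of the initiation pathway studied in the series, had footprint levels of 10.74 in tif1-ts and 11.08 in wild-type TIF1, equal mRNA levels of 8.5, and so a TE change of -0.34. PMA1 (YGL008C), the plasma membrane proton pump and one of the most strongly expressed membrane proteins of yeast, had a TE change of 0.07. GCN4, whose translation is governed by upstream open reading frames, stayed outside the 2645 genes because of its footprints, and its TE difference was 0.04.

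At 30 °C most genes kept a similar TE in both strains. The TE change had a median of 0.01 and a standard deviation across genes of 0.37, and 84.65% of the genes lay within 0.5 of 0. TE was at least 2-fold lower in tif1-ts for 15 genes (0.567%) and at least 2-fold higher for 7 (0.265%). mRNA was at least 2-fold lower for 42 genes (1.59%) and at least 2-fold higher for 20 (0.756%). Footprints were at least 2-fold lower for 43 genes (1.63%) and at least 2-fold higher for 54 (2.04%). The median change was -0.10 for mRNA and -0.09 for footprints. When each change was taken relative to that median, mRNA was lower for 32 genes and higher for 33, and footprints were lower for 31 and higher for 69.

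Genes with lower mRNA mostly had a TE close to that of wild-type TIF1, and those with higher mRNA less uniformly so. Of the 42 genes with lower mRNA, 41 also had footprints below 0, against 59.5% of all genes. A TE change within 0.5 of 0 was found in 39 of them, against 84.65% of all genes. TE was above 0 in 29 of the 42, against 51.2%, with a median TE change of 0.165. Of the 20 with higher mRNA, 19 had footprints above 0, against 39.3% of all genes. In footprints 11 of those were at least 2-fold higher as well, against 2.04%. TE was within 0.5 of 0 in 11 of the 20. It was below 0 in 14, against 48.0% of all genes, with a median TE change of -0.26. Of the 54 genes with higher footprints 49 had a TE change above 0, against 51.2% of all genes, with a median of 0.77 over the 54. Of the 43 with lower footprints 33 had a TE change below 0, against 48.0% of all genes, with a median of -0.30, and 29 lay within 0.5 of 0. As TE is computed from the footprint level, a choice of genes by footprints moves their TE in the same direction by construction, so nothing is read from these counts. Of the 15 genes with lower TE, 13 had mRNA above 0 and 13 had footprints below 0, against 36.0% and 59.5% of all genes. Their median changes were 0.6 for mRNA and -0.63 for footprints. A choice of genes by lower TE favours higher mRNA and lower footprints by construction, so nothing is read from these counts either. An mRNA value enters both its own change and the TE change with opposite sign, so an error in it moves them apart. Genes with a value below 100 made up 7 of the 22 genes called in TE and 15 of the 62 called in mRNA. In TE all 7 were among the 15 of lower TE.

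**Figure D1:**
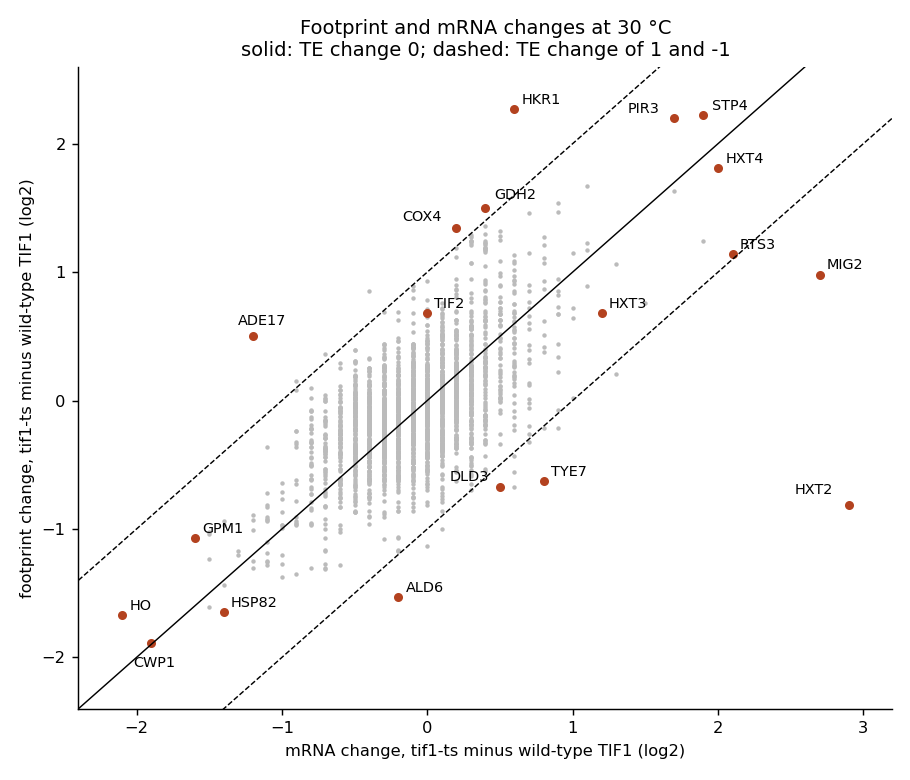
Footprint change (vertical axis) against mRNA change (horizontal axis) of the 2645 genes at 30 °C, both as tif1-ts minus wild-type TIF1 in log2 units, 1 point per gene. HXT2, at 2.9 for mRNA and -0.81 for footprints, lies far below the lower dashed line, which marks a 2-fold lower TE, and the vertical stripes come from mRNA levels printed to 1 decimal.

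The lowest TE change belonged to HXT2 (YMR011W), which encodes a high-affinity glucose transporter of the plasma membrane. Its log2 mRNA level was 8.7 in tif1-ts against 5.8 in wild-type TIF1, a 7.46-fold higher abundance, whereas its footprint level was 7.60 in tif1-ts against 8.41 in wild-type TIF1. More mRNA thus came with fewer footprints, and TE was 13.1-fold lower in tif1-ts, a log2 change of -3.71. The wild-type mRNA abundance of HXT2 lies below 100. MIG2 (YGL209W), a zinc-finger repressor that acts in glucose repression, had mRNA levels of 8.6 in tif1-ts and 5.9 in wild-type TIF1 and footprint levels of 8.02 in tif1-ts and 7.04 in wild-type TIF1. For MIG2 both assays were higher in tif1-ts, but footprints by 0.98 and mRNA by 2.7, so that TE was lower by 1.72. The wild-type mRNA abundance of MIG2 was below 100 as well. TYE7 (YOR344C), a basic helix-loop-helix activator of glycolytic genes, had mRNA levels of 7.1 in tif1-ts and 6.3 in wild-type TIF1 and footprint levels of 6.46 in tif1-ts and 7.09 in wild-type TIF1, for a TE change of -1.43. In each assay 1 of its abundances lay below 100.

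The other hexose transporters did not share the TE of HXT2. HXT4 (YHR092C) had mRNA levels of 9.0 in tif1-ts and 7.0 in wild-type TIF1 and footprint levels of 9.76 in tif1-ts and 7.95 in wild-type TIF1, so both were higher by nearly the same amount and TE differed by -0.19. HXT3 (YDR345C), a low-affinity transporter, had mRNA levels of 11.2 in tif1-ts and 10 in wild-type TIF1 and a TE change of -0.52. HXT1 (YHR094C), also of low affinity, had an mRNA change of 0.2 and a TE change of -0.51. The high-affinity transporters HXT6 (YDR343C) and HXT7 (YDR342C), near-identical copies whose reads cannot be assigned between them, had TE changes of 0.04 and -0.07. Over the 6 transporters that entered, of 17 on the list and 7 in the table, mRNA was above 0 in 6, against 36.0% of all genes, and at least 2-fold higher in 3, against 0.756%. HXT2, which is among the 3, entered in mRNA through its level in tif1-ts. TE was below 0 in 5 of them, against 48.0% of all genes, with a median of -0.35. HXT5, the transporter of slow growth, stayed below the abundance limit.

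**Figure D2:**
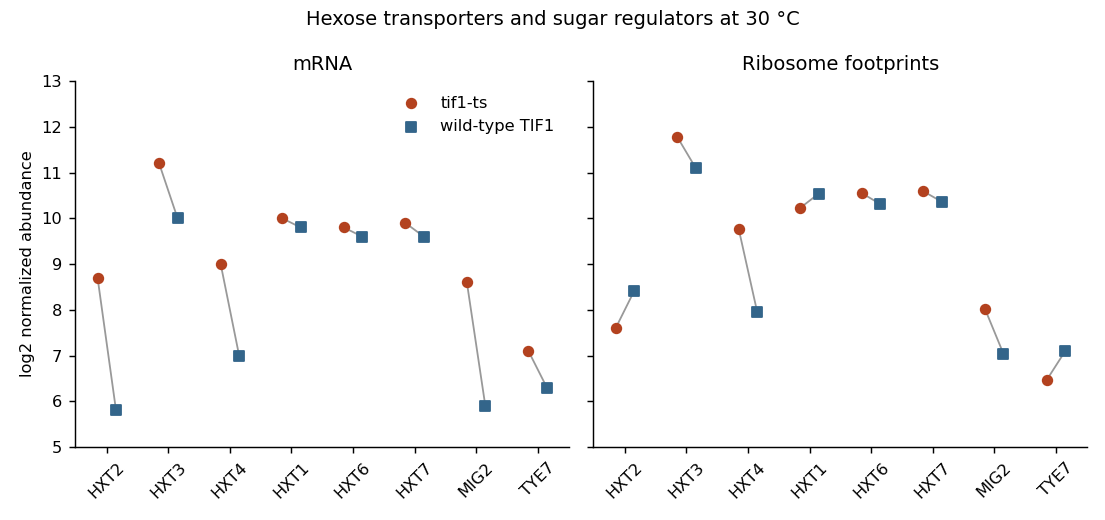
Log2 normalized abundance of mRNA (left) and ribosome footprints (right) at 30 °C for 6 hexose transporters and the regulators MIG2 and TYE7, 1 value per group, with circles for tif1-ts and squares for wild-type TIF1. HXT2 stands at 8.7 in tif1-ts and 5.8 in wild-type TIF1 for mRNA, and at 7.60 in tif1-ts and 8.41 in wild-type TIF1 for footprints, while HXT4 is higher in tif1-ts in both.

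Regulators of sugar sensing had a median near that of the other genes, with MIG2 and TYE7 apart. The list of 24 glucose sensing and repression genes had 13 in the comparison, with a median TE change of -0.15 and MIG2 and TYE7 as its 2 members at least 2-fold lower in TE, against 0.567% of all genes. Both entered in mRNA through their level in tif1-ts, and TYE7 entered in footprints through its level in wild-type TIF1. That choice favours a lower TE, so nothing is read from this share. GAL83, a targeting subunit of the Snf1 kinase, had a TE change of -0.79. SNF1 itself had -0.31 and SNF4, its activating subunit, -0.15. The corepressors TUP1 and CYC8 had TE changes of 0.23 and 0.03. SKS1 (YPL026C), a kinase needed for growth in low glucose that is not on the list, had mRNA levels of 8.0 in tif1-ts and 6.1 in wild-type TIF1 and a TE change of -0.66.

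Acetate and carboxylation enzymes made up a further set of low TE values. ALD6 (YPL061W), the cytosolic acetaldehyde dehydrogenase that makes acetate, had a footprint level of 10.99 in tif1-ts against 12.52 in wild-type TIF1. Its mRNA levels were close, at 9.7 in tif1-ts and 9.9 in wild-type TIF1, which leaves a TE change of -1.33. ALD6 was the 1 of the 15 genes of lower TE whose mRNA was below 0, and its counting error was 0.03. DLD3 (YEL071W), a cytosolic D-lactate dehydrogenase, had footprint levels of 9.81 in tif1-ts and 10.48 in wild-type TIF1 and mRNA levels of 10.8 in tif1-ts and 10.3 in wild-type TIF1, for a TE change of -1.17. CIT2 (YCR005C), the peroxisomal citrate synthase of the glyoxylate cycle, had footprint levels of 8.65 in tif1-ts and 9.08 in wild-type TIF1 and mRNA levels of 11.6 in tif1-ts and 11 in wild-type TIF1, for a TE change of -1.03. CIT2 and DLD3 are both known targets of the retrograde pathway that signals from mitochondria to the nucleus. PYC1 (YGL062W), a pyruvate carboxylase, had an mRNA change of 0.8, a footprint change of -0.21 and a TE change of -1.01. Of the 14 genes measured for gluconeogenesis, the glyoxylate cycle and acetate, of 24 on the list, 12 were below 0 in TE, against 48.0% of all genes, and these 4 were at least 2-fold lower, against 0.567%. The list median was -0.28. MDH2, the cytosolic malate dehydrogenase, went the other way, with changes of 1.11 in footprints and 0.31 in TE.

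The remaining genes of lower TE had varied functions. FAA3 (YIL009W), a long-chain fatty acyl-CoA synthetase, had footprint levels of 6.33 in tif1-ts and 7.46 in wild-type TIF1 with equal mRNA levels of 7.3. SUA7 (YPR086W), the general transcription factor TFIIB, had footprint levels of 6.60 in tif1-ts and 7.60 in wild-type TIF1 and an mRNA change of 0.1. For these 2 genes the TE changes of -1.13 and -1.10 came from footprints. In CMK2 (YOL016C), a calmodulin-dependent protein kinase, mRNA was higher by 1.3 and footprints by 0.21, for a TE change of -1.09. AQR1 (YNL065W), a plasma membrane multidrug transporter, had a TE change of -1.16, and DPI8 (YJL133C-A) one of -1.11. TDA1 (YMR291W), a protein kinase, and UBP12 (YJL197W), a ubiquitin protease, stood at the 2-fold limit with -1.02 and -1. YGR079W, a gene without a standard name that was picked out after its values were seen, had -1.27. Counting errors of the footprint changes of AQR1, FAA3, DPI8, SUA7 and CMK2 lay between 0.13 and 0.15. In FAA3, SUA7, AQR1 and YGR079W the footprint abundance in tif1-ts was below 100, so they entered through their footprints in wild-type TIF1.

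ADE17 (YMR120C) had the highest TE change, 1.70. It encodes a bifunctional enzyme of the last steps of purine synthesis. Its log2 mRNA level was 9.0 in tif1-ts against 10.2 in wild-type TIF1, and its footprint level was 8.81 in tif1-ts against 8.31 in wild-type TIF1. ADE17 was therefore the opposite of HXT2, with less mRNA and more footprints in tif1-ts. HKR1 (YDR420W), a mucin-like membrane sensor of osmotic stress, had footprint levels of 9.94 in tif1-ts and 7.67 in wild-type TIF1, a 4.82-fold higher abundance. This was the highest footprint change of all, and with mRNA levels of 8.0 in tif1-ts and 7.4 in wild-type TIF1 it gave a TE change of 1.67.

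The other genes of higher TE included short mitochondrial and membrane proteins. PMP2 (YEL017C-A), a small proteolipid bound to the proton pump Pma1, had footprint levels of 9.96 in tif1-ts and 9.11 in wild-type TIF1, and a TE change of 1.25. Its close paralog PMP1 may share reads with it. COX4 (YGL187C), a subunit of cytochrome c oxidase, had footprint levels of 8.87 in tif1-ts and 7.53 in wild-type TIF1 and mRNA levels of 7.6 in tif1-ts and 7.4 in wild-type TIF1, for a TE change of 1.14. GDH2 (YDL215C), the NAD-dependent glutamate dehydrogenase, had footprint levels of 8.23 in tif1-ts and 6.73 in wild-type TIF1 and a TE change of 1.10. In NNR2 (YKL151C), a metabolite repair enzyme, and MIT1 (YEL007W), a regulator of pseudohyphal growth, TE changes of 1.06 and 1.05 came mostly from lower mRNA, by -0.7 and -0.9. Just under the limit, at 0.99 each, were DGA1 (YOR245C), which makes triacylglycerol, SDH4 (YDR178W), a membrane anchor of succinate dehydrogenase, and MCR1 (YKL150W), a mitochondrial NADH-cytochrome b5 reductase. DGA1 had abundances below 100 in wild-type footprints and in tif1-ts mRNA. It entered through the other value of each assay, which favours a higher TE.

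At the mRNA level the lowest change belonged to HO (YDL227C), the endonuclease of mating-type switching. HO mRNA stood at 6.1 in tif1-ts and 8.2 in wild-type TIF1, and its footprints at 6.56 in tif1-ts and 8.23 in wild-type TIF1. CWP1 (YKL096W), a cell wall mannoprotein, had mRNA levels of 6.9 in tif1-ts and 8.8 in wild-type TIF1 and a footprint change of -1.89, the lowest of all. GPM1 (YKL152C) and PGK1 (YCR012W), the phosphoglycerate mutase and phosphoglycerate kinase of glycolysis, had mRNA changes of -1.6 and -1.5. The G1 cyclin CLN1 (YMR199W), the mitochondrial dicarboxylate carrier DIC1 (YLR348C) and CIP1 (YPL014W), an inhibitor of the cyclin-dependent kinase, had -1.5 each. In DIC1 footprints were lower by nearly as much, with a change of -1.61 and a TE change of -0.11. The values of HO and CIP1 in tif1-ts were below an abundance of 100 in both assays, so these genes entered through their level in wild-type TIF1. CLN1 did so in mRNA, where its abundance in tif1-ts was below 100.

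At the other end, RTS3 (YGR161C) had mRNA levels of 8.5 in tif1-ts and 6.4 in wild-type TIF1 with a footprint change of 1.14. STP4 (YDL048C), a zinc-finger protein, had mRNA levels of 7.7 in tif1-ts and 5.8 in wild-type TIF1 and footprint levels of 7.61 in tif1-ts and 5.39 in wild-type TIF1. Its changes of 1.9 and 2.22 left a TE change of 0.32. PIR3 (YKL163W), an O-glycosylated cell wall protein, had footprint levels of 10.32 in tif1-ts and 8.12 in wild-type TIF1 and mRNA levels of 9.0 in tif1-ts and 7.3 in wild-type TIF1. YPS3 (YLR121C), a cell surface aspartic protease, had similar changes of 1.63 in footprints and 1.7 in mRNA. NRE1 (YIR035C) had a footprint change of 1.67 with an mRNA change of 1.1. Of the 6 genes of highest mRNA change, those other than HXT2 and MIG2 thus had TE changes between -0.96 in RTS3 and 0.32 in STP4. The wild-type values of RTS3, STP4, SKS1 and YPS3 were below an abundance of 100 in both assays, so these genes entered through their level in tif1-ts.

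The enzymes of glycolysis and ethanol fermentation had less mRNA in tif1-ts, and most had a higher TE. Of the 17 measured genes, of 23 on the list, mRNA was below 0 in 15, against 53.8% of all genes, and at least 2-fold lower in 8, against 1.59%, with a median of -0.90. The median footprint change was -0.72 and the median TE change 0.29, with TE above 0 in 14, against 51.2% of all genes. PGK1 had mRNA levels of 11.4 in tif1-ts and 12.9 in wild-type TIF1, and footprint levels of 13.97 in tif1-ts and 14.99 in wild-type TIF1. ADH1, the main alcohol dehydrogenase of fermentation, had an mRNA change of -1.4 and a TE change of 0.43, and PYK2, the minor pyruvate kinase isoform, had the highest TE change of the list, 0.69. PYK2 entered in mRNA through wild-type TIF1, as its mRNA abundance in tif1-ts was below 100. The 3 genes of the list with a TE change below 0 act in the upper steps of glycolysis. They were the phosphofructokinase subunits PFK1 and PFK2 and the hexokinase HXK2, singled out after their values were seen, with TE changes of -0.66, -0.65 and -0.59 and mRNA changes of -0.1, 0.0 and -0.2. Other upper-step genes did not share this, as HXK1, FBA1 and TPI1 had TE changes of 0.09, 0.38 and 0.27. Several of these enzymes, such as TDH1, TDH2 and TDH3, are encoded by close paralogs that may share reads.

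Nuclear-encoded genes of oxidative phosphorylation were higher in both assays and in TE. Of the 23 measured genes, of 38 on the list and 34 in the table, mRNA was above 0 in 22, footprints in 22 and TE in 21, against 36.0%, 39.3% and 51.2% of all genes. Their median changes were 0.40 in mRNA, 0.86 in footprints and 0.41 in TE, and 8 were at least 2-fold higher in footprints, against 2.04% of all genes. After COX4 the highest TE changes were those of ATP17, a subunit of ATP synthase, at 0.82, and QCR6, a subunit of the cytochrome bc1 complex, at 0.77. QCR2 of the same complex and the external NADH dehydrogenase NDE1 had the highest mRNA changes, 0.8 each. COX5B, the isoform of cytochrome oxidase subunit Vb that is expressed in low oxygen, was the exception in all 3 measures, with changes of -0.66 in footprints, -0.5 in mRNA and -0.16 in TE, and was noticed after its values were seen.

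The TCA cycle did not show the same pattern. Its 16 measured genes had median changes of 0.15 in mRNA and 0.05 in TE, and 9 were above 0 in TE, against 51.2% of all genes. The succinate dehydrogenase genes, which belong to the respiratory chain as well, stood high within it in 3 of 4 cases. SDH4 had a TE change of 0.99, SDH3 of 0.50 and SDH2 of 0.46, but SDH1, the catalytic subunit, one of -0.14 with the highest mRNA change of the list, 0.7. CIT1, the mitochondrial citrate synthase, had the lowest TE change of the list, -0.79, singled out after its value was seen.

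**Figure D3:**
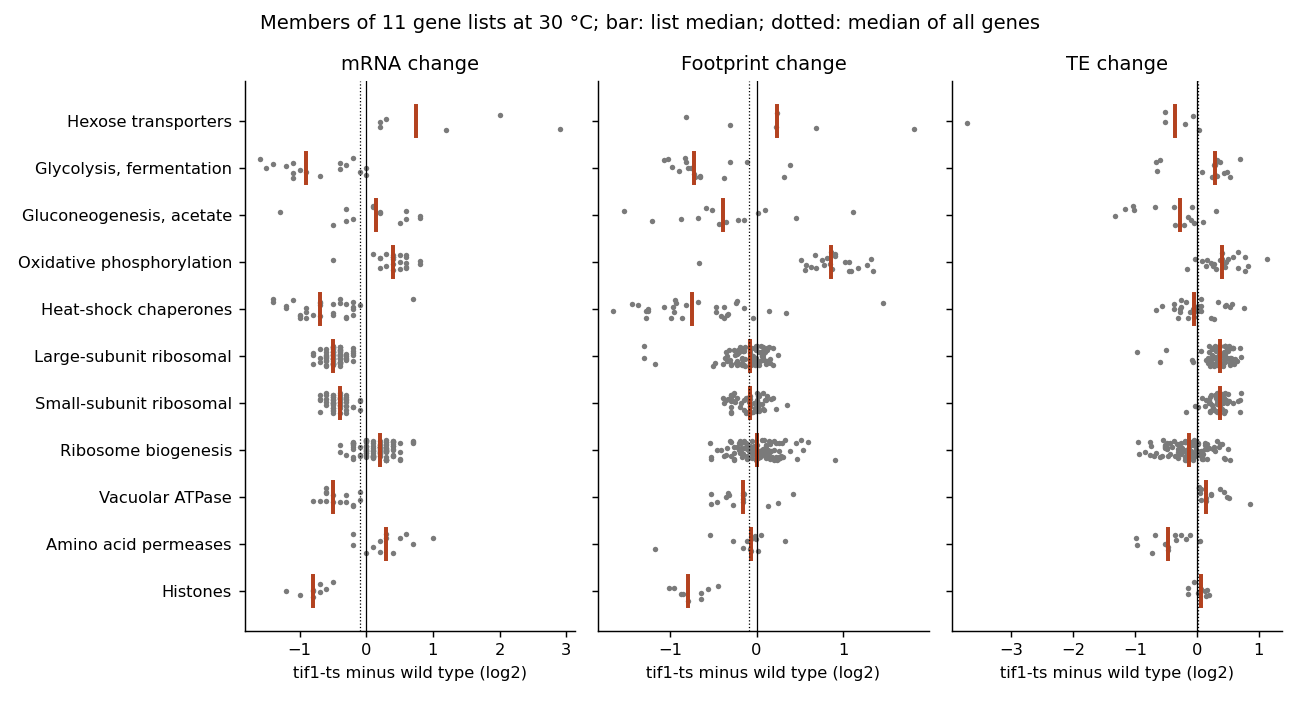
Changes of mRNA (left), footprints (middle) and TE (right) at 30 °C, as tif1-ts minus wild-type TIF1 in log2 units, for the members of 11 gene lists, 1 point per gene with random vertical spread and a bar at the list median. Chaperone and glycolysis genes lie to the left in mRNA, with medians of -0.70 and -0.90, oxidative phosphorylation to the right in all panels, and the ribosomal protein genes to the left in mRNA and to the right in TE.

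Heat-shock chaperones had less mRNA and correspondingly fewer footprints, with little difference in TE. mRNA was below 0 in 29 of the 30 measured genes, of 37 on the list, against 53.8% of all genes, with a median of -0.70, and at least 2-fold lower in 8, against 1.59%. Footprints were at least 2-fold lower in 8, against 1.63% of all genes, with a median of -0.74, and the median TE change was -0.05. HSP82 (YPL240C), the inducible Hsp90, had mRNA levels of 8.8 in tif1-ts and 10.2 in wild-type TIF1 and footprint levels of 10.92 in tif1-ts and 12.57 in wild-type TIF1. Its near-identical copy HSC82 (YMR186W) had mRNA levels of 10.4 in tif1-ts and 11.8 in wild-type TIF1 and footprint levels of 12.53 in tif1-ts and 13.97 in wild-type TIF1. The 2 copies may share reads, and both had an mRNA change of -1.4. The cytosolic Hsp70 gene SSA2 had changes of -1.2 in mRNA and -1.25 in footprints. The lowest TE changes were those of CPR7, a cyclophilin that binds Hsp90, at -0.66, and of the mitochondrial chaperonin HSP60 at -0.57. CPR7 entered in footprints through wild-type TIF1, as its footprint abundance in tif1-ts was below 100. HSP31, the 1 member above 0 in mRNA, which is named after its values were seen, had changes of 0.7 in mRNA and 1.46 in footprints.

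Genes of the general stress response showed a weaker difference in the same direction in mRNA, with little of it in footprints. Their median footprint change was -0.05, next to -0.09 for all genes, and their median TE change was 0.12. Among 27 measured genes mRNA was below 0 in 20, against 53.8% of all genes, with a median of -0.40. It was at least 2-fold lower in 2, against 1.59%, and at least 2-fold higher in 1, against 0.756%. DDR48 and RTC3 had mRNA changes of -1.1 each, and XBP1, a stress-induced repressor, one of 1.1. RTC3 entered in mRNA through wild-type TIF1, as its mRNA abundance in tif1-ts was below 100. That favours lower mRNA, so nothing is read from the share of 2-fold lower genes. The glutathione transferase GTT1 and the catalase CTT1 had the highest TE changes of this list, 0.89 and 0.82.

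Genes for cytosolic ribosomal proteins had less mRNA and a higher TE, so that their footprints differed little. mRNA was below 0 in all 80 large-subunit and all 56 small-subunit genes measured, against 53.8% of all genes, with medians of -0.50 and -0.40, and in none was it 2-fold lower. TE was above 0 in 75 of the large-subunit genes and in 54 of the small-subunit genes, against 51.2% of all genes, with a median of 0.37 in each list. Footprint medians were -0.08 in each, next to -0.09 for all genes. RPL30, which had an mRNA change of -0.8 and a TE change of 0.72, and RPS27B, with -0.7 and 0.72, were at the upper end. RPL22B went against this, with a TE change of -0.97, as did the 2 genes of the shortest ribosomal protein, RPL41A and RPL41B, with -0.50 and -0.60; they were picked out after their values were seen. Many ribosomal protein genes exist as near-identical pairs, and values within a pair are uncertain. The 18 measured genes of mitochondrial ribosomal proteins, of 75 on the list and 67 in the table, had a median TE change of -0.06.

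Factors that assemble ribosomes differed from the ribosomal proteins in both measures. Of 108 measured genes, of 119 on the list, mRNA was above 0 in 75, against 36.0% of all genes, with a median of 0.20, and TE was below 0 in 75, against 48.0% of all genes, with a median of -0.12. NSR1, a nucleolar protein of pre-rRNA processing, had an mRNA change of 0.7 and a TE change of -0.96. LCP5 and MPP10, both of the small-subunit processome, had TE changes of -0.93 and -0.84, and the DEAD-box helicase genes DBP6 and DBP7 were with NSR1 the highest in mRNA. No gene on this list passed 2-fold in either measure.

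Within the eIF4F group, TIF2 had the highest TE change. The scaffold genes TIF4631 and TIF4632, which encode eIF4G, had TE changes of -0.24 and -0.71, and PAB1, the poly(A)-binding protein, one of -0.55. EAP1, which binds eIF4E, had -0.35, and CDC33, the eIF4E gene, had 0.26. Of 10 genes in this group 6 were below 0, near the 48.0% of all genes, with a median of -0.22. The 18 measured genes of eIF1, eIF1A, eIF2, eIF2B, eIF3 and eIF5 had a median of -0.03, ranging from -0.41 in FUN12, which encodes eIF5B, to 0.47 in TIF11, which encodes eIF1A. Elongation and termination factors had a median of 0.05, with EFB1, an exchange factor of eEF1A, highest at 0.56. Among mRNAs known to carry upstream open reading frames 15 were measured, and their median was -0.24, with IMD4 of guanine nucleotide synthesis at -0.87 and the transporter HOL1 at -0.76 among the lowest. HOL1 entered in footprints through wild-type TIF1, as its footprint abundance in tif1-ts was below 100.

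Amino acid permeases and nitrogen transporters combined more mRNA with lower TE. Of 13 measured genes, of 25 on the list, TE was below 0 in 12, against 48.0% of all genes, with a median of -0.46, and mRNA was above 0 in 10, against 36.0%, with a median of 0.30. AGP1, a permease of broad range, had 1.0 more mRNA in log2 units with footprints different by 0.02, and so a TE change of -0.98. The methionine permease MUP1 had an mRNA change of 0.7 and a TE change of -0.72. DIP5, the permease for glutamate and aspartate, reached -0.97 with a footprint change of -1.17. The general permease GAP1 had a TE change of -0.36. Amino acid biosynthesis did not share this, with a median TE change of -0.04 over 53 genes. Among its lowest members were GLN1, the glutamine synthetase, at -0.95, and ARO1, the multifunctional enzyme of aromatic synthesis, at -0.81.

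Other lists differed mainly in mRNA, which was below 0 in 53.8% of all genes, at least 2-fold lower in 1.59% and at least 2-fold higher in 0.756%. All 9 measured histone genes were below 0 in mRNA, with a median of -0.80, and HTA2 with -1.2 and HTB2 with -1.0 were at least 2-fold lower; their TE median was 0.06. All 15 measured subunits of the vacuolar ATPase were below 0 in mRNA and above 0 in TE, the second against 51.2% of all genes, with medians of -0.50 and 0.15, and VMA11 had the highest TE change, 0.85. Proteasome subunits were below 0 in mRNA in 32 of 34 cases, with a median of -0.35 and none past 2-fold. Purine and one-carbon genes were below 0 in mRNA in 17 of 20 cases, with ADE17 and IMD2 past 2-fold, and MTD1 and GCV1 of one-carbon metabolism had TE changes of 0.98 and 0.90. In the cell wall list of 37 measured genes PIR3, NCW2 and GSC2 were at least 2-fold higher in mRNA, and CWP1, GAS3 and PRY2 at least 2-fold lower. Among cyclins and other cell-cycle genes CLN1, CLN2 and HO were the 3 of 17 that were at least 2-fold lower in mRNA. CLN1 and HO entered in mRNA through wild-type TIF1, as their mRNA abundance in tif1-ts was below 100. That choice favours lower mRNA, so nothing is read from this share. The 22 ergosterol genes had a median mRNA change of -0.25, led by the sterol isomerase ERG2 at -0.9, and the 22 RNA polymerase subunits a median TE change of -0.11, with the largest subunit of RNA polymerase II, RPO21, lowest at -0.70.

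The changes also differed with coding length, taken from start to stop codon with any intron included. In the group of the 529 shortest genes, of median length 645 bases, the median TE change was 0.28 and 77.69% of the genes were above 0. In the group of the 529 longest, of median length 3342 bases, the median TE change was -0.09 and 37.62% of the genes were above 0. mRNA ran the other way, with a median change of -0.4 in the shortest group and 0.1 in the longest. Footprints showed little of either, with medians of -0.08 in the shortest group, -0.16 in the middle one and 0.01 in the longest. Across 2643 genes, which share the same libraries, the rank correlation with length was 0.46 for the mRNA change, -0.35 for the TE change and 0.10 for the footprint change. Without the cytosolic ribosomal protein genes these values were 0.42, -0.30 and 0.11 over 2507 genes. Of the lists above, oxidative phosphorylation, with a median length of 544 bases, and ribosomal proteins, with 805 and 768 bases in the large and small subunit, fall among the short genes. The amino acid permeases, with 1815 bases, fall among longer ones. The part of length in the list values was not tested.

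**Figure D4:**
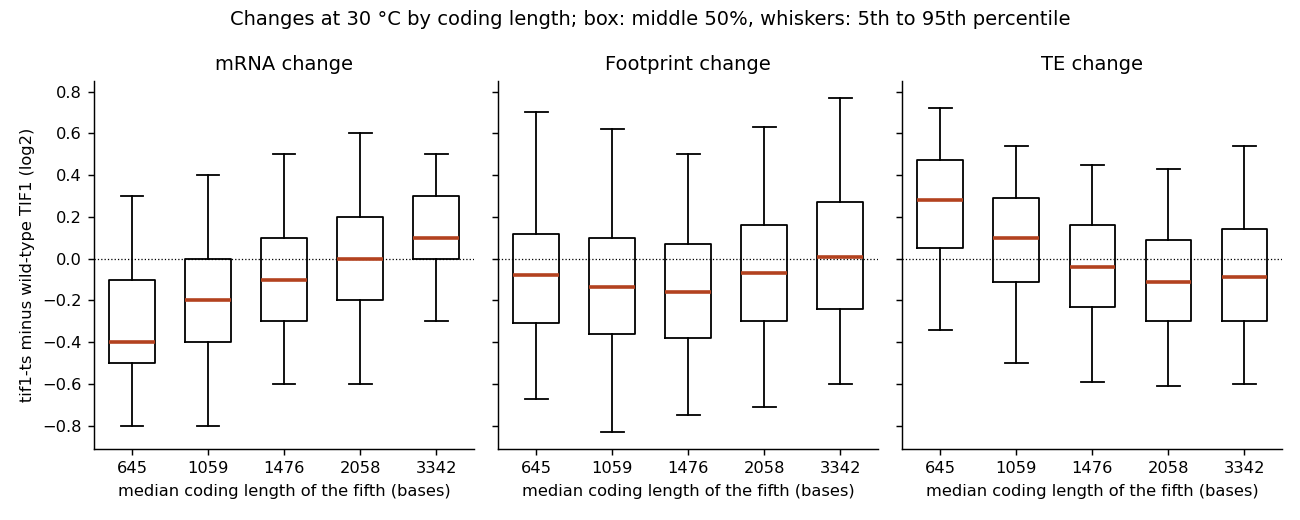
Changes of mRNA (left), footprints (middle) and TE (right) at 30 °C, as tif1-ts minus wild-type TIF1 in log2 units, for 5 equal groups of genes ordered by coding length, with the median as a thick line, the middle 50% of the genes as a box and whiskers from percentile 5 to 95. Medians climb with length from -0.4 to 0.1 for mRNA and go down from 0.28 to -0.09 for TE, while those of footprints stay between -0.16 and 0.01.

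The TE and mRNA changes also ran with the level of the mRNA. Among the 529 genes with the highest wild-type mRNA the median changes were -0.4 for mRNA and 0.18 for TE, against 0.1 and -0.04 among the 529 with the lowest. Over 2645 genes the rank correlation with the wild-type mRNA level was -0.38 for the mRNA change and 0.17 for the TE change. The wild-type TE had a rank correlation of -0.38 with the footprint change and -0.12 with the TE change. A level and its change share the wild-type values here.

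The same strains at 37 °C give a second reading from separate libraries, normalized in a table of their own. Of the 2645 genes, 2452 also passed the abundance limit there. Among these 2452 genes the TE changes had a standard deviation of 0.37 at 30 °C and 0.57 at 37 °C, and 80 genes (3.26%) were at least 2-fold lower in TE at 37 °C and 65 (2.65%) at least 2-fold higher. mRNA was at least 2-fold lower for 131 genes (5.34%) at 37 °C and at least 2-fold higher for 82 (3.34%). Across genes the rank correlation between the changes at the 2 temperatures was 0.55 for TE, 0.69 for mRNA and 0.57 for footprints. Against the changes in the DED1 mutants, also from libraries of their own, it was 0.31 for TE and 0.46 for mRNA over 2641 genes in ded1-ts at 37 °C, and in ded1-cs at 15 °C 0.21 for TE and 0.21 for mRNA over 2481 genes.

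The genes of higher TE at 30 °C carried over to 37 °C more often than those of lower TE did in these libraries, a difference that was not tested. At 30 °C only the genes of lower TE included members with an abundance below 100. Of the 7 higher genes 7 were above 0 at 37 °C, against 48.4% of all genes, and 5 passed 2-fold there (71.43% of the 7 and 7.69% of the 65). HKR1 had a TE change of 1.48 at 37 °C, COX4 of 1.28, PMP2 of 1.26, ADE17 of 1.20 and MIT1 of 1.04, whereas GDH2 had 0.08. Of the 13 lower genes present in both tables, 8 were below 0 at 37 °C, against 51.5% of all genes, and 3 passed 2-fold (23.08% of the 13 and 3.75% of the 80). The 3 were HXT2 with -1.68, SUA7 with -1.48 and TDA1 with -1.16. For HXT2 the footprint levels at 37 °C were 7.49 in tif1-ts and 8.37 in wild-type TIF1, much as at 30 °C, but the mRNA levels were 7.4 in tif1-ts and 6.6 in wild-type TIF1. TYE7 and ALD6 had TE changes of -0.79 and -0.56 at 37 °C. MIG2 and AQR1 were too low to enter there.

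Lower mRNA carried over in most cases. Of the 39 genes with at least 2-fold lower mRNA at 30 °C, 37 were below 0 at 37 °C, against 55.0% of all genes, and 27 passed 2-fold (69.23% of the 39 and 20.61% of the 131). CWP1 had an mRNA change of -1.2 at 37 °C, GPM1 of -1.3, PGK1 of -1.3 and HSC82 of -1.5. Of the 17 genes with higher mRNA, 16 were above 0, against 36.8% of all genes, and 5 passed 2-fold (29.41% of the 17 and 6.1% of the 82). HXT4 had a change of 0.3 there, with a footprint change of -0.72, and PIR3 one of 1.5. Footprints at least 2-fold higher were shared by 33 of 49 genes (67.35% of the 49 and 47.83% of the 69, which are 2.81% of all genes). Footprints at least 2-fold lower were shared by 21 of 40 genes (52.5% of the 40 and 14.48% of the 145, which are 5.91% of all genes).

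Several gene lists had medians of the same sign at both temperatures. At 37 °C the oxidative phosphorylation genes had a median TE change of 0.54 and mRNA change of 0.1, and glycolysis had 0.39 in TE and -1.0 in mRNA. Ribosomal proteins had TE medians of 0.48 for the large and 0.55 for the small subunit. Ribosome biogenesis factors had a TE median of -0.12 at 30 °C and -0.48 at 37 °C, and hexose transporters had -0.35 at 30 °C and -0.92 at 37 °C. The mRNA median of histones was -1.95 at 37 °C. Genes of gluconeogenesis, the glyoxylate cycle and acetate had a TE median of -0.28 at 30 °C and -0.155 at 37 °C. At 37 °C 7 of the 13 measured were below 0 in TE and 6 above, near the 51.5% below 0 of all genes. Purine and one-carbon genes stood on opposite sides of 0, with mRNA medians of -0.35 at 30 °C and 0.6 at 37 °C.

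**Figure D5:**
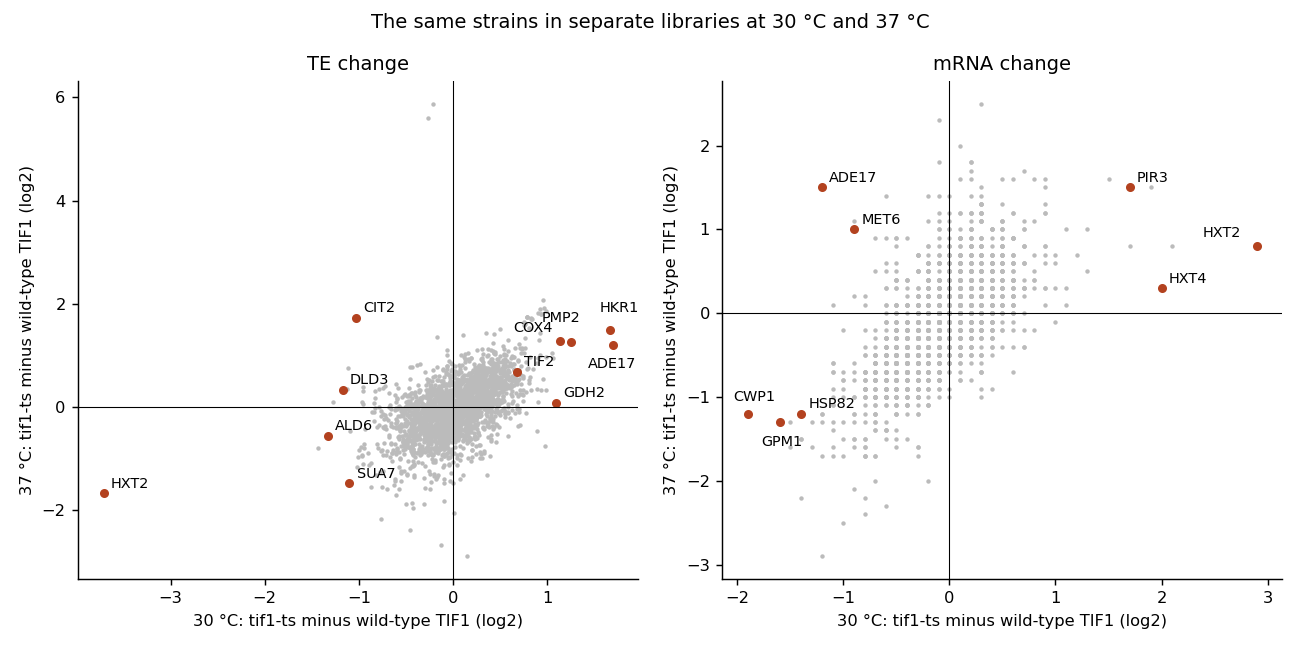
TE change (left) and mRNA change (right) of 2452 genes at 37 °C (vertical axis) against 30 °C (horizontal axis), each as tif1-ts minus wild-type TIF1 in log2 units, 1 point per gene. HXT2 is at the far left for TE with -3.71 at 30 °C and -1.68 at 37 °C. CIT2 falls in the upper left quadrant for TE, and ADE17 in that for mRNA. The 2 points above 5 at the top left are the unnamed genes YOL013W-A and YPR108W-A, with TE changes of 5.61 and 5.88 at 37 °C.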

How the data were processed

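The authors deposited a table with 1 log2 normalized abundance per gene for footprints and mRNA of each strain, made from groups of 2 labelled replicates; the labels and files do not state how the replicates were merged. Footprints were made with RNase I, per the labels' protocols. Per the submitters' processing notes, the tools were TopHat2 2.0.7, Bowtie2 2.0.6, CASAVA 1.8 and DESeq, and the build was sacCer2; no order or role is stated. Which annotation and strand setting were used, and how reads with several matches were counted, is not given in the sources consulted. Abundances are relative within a table, so total translation is not measured.

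Changes were computed from the level columns as tif1-ts minus wild-type TIF1 with Python 3.11.15, pandas 2.3.3 and numpy 2.4.6, figures with matplotlib 3.10.9, and the counting of changes was tested on simulated data. With 1 value per group, changes of at least 2-fold were counted and no test was run. Footprint depth came from the spacing of the lowest values: among genes of up to 10 reads, 69.2% of 52 in tif1-ts and 79.5% of 73 in wild-type TIF1 lay within 0.1 read of a whole number. Standard errors from it cover counting only, since reads are not independent molecules. Symbols and coding lengths came from RefSeq assembly R64, which matched 4919 genes and missed 2. It differs from the files' build, so no coordinates are given, and no sequence is shown. Coding lengths were multiples of 3 for 96.0% of the genes.

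The text names, among genes with a standard name, the 10 lowest and 10 highest TE changes, the 6 lowest and 6 highest mRNA and footprint changes with ties, fixed marker genes, and up to 3 members per list with the largest change in the direction of its median. Further genes completing a called set, close to a member or against their list are named as well, chosen after their values were seen. The comparison, its members and the 32 gene lists were chosen with earlier results of these data known. The alternatives were abundance limits of 10 and 400, the authors' deposited differences, centring on the median change and a pseudocount of 16 added to each abundance.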

Additional observations from a re-analysis of the deposited data

Results flagged for a closer look

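In a pair of genes the change at 30 °C and the change at 37 °C passed 2-fold in opposite directions. CIT2 had a TE change of -1.03 at 30 °C and of 1.73 at 37 °C. ADE17 had an mRNA change of -1.2 at 30 °C and of 1.5 at 37 °C. Each rests on 1 value per group, and the difference between temperatures was not tested.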

How the results depend on the processing

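No paired analysis was possible because each group has 1 deposited value, and for the same reason no replicate could be left out. Counts of genes past 2-fold depended most on the abundance limit. With a limit of 10 (4834 genes), TE was higher for 108 and lower for 55, mRNA higher for 73, and footprints higher for 208 and lower for 74. With a limit of 400 (630 genes), TE was higher for 0 and lower for 4, mRNA higher for 2 and lower for 23, and footprints higher for 21 and lower for 19; the number of genes entered differs by construction. Centring on the median raised the mRNA count to 33 higher. In the authors' deposited table, whose differences carry more digits, TE was higher for 11 genes, and 7 higher and 13 lower genes were shared with the counts above. A pseudocount of 16 left 4 genes of higher TE. None of the 93 list medians moved by over 0.1 under centring, the deposited differences or the pseudocount. Centring shifts all values of a measure by 1 constant, at most 0.1 in size. The deposited differences are the same values with more digits. For these settings the outcome was thus all but fixed beforehand, and only the pseudocount could have moved a median further. The other abundance limits were not applied to the lists. Of 564 gene values, 39 moved by more than 0.1 under the pseudocount. Depth limits footprint changes at low abundance, and what replicate spread would add is unknown.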

Other observations

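By their medians, uptake and sulfur genes stood close to the rest at 30 °C. Over 14 measured genes of zinc, iron and copper uptake, the median changes were -0.08 in TE and 0.0 in mRNA, and the multicopper oxidase FET3 had the lowest TE change, -0.62. The metallothionein copies CUP1-1 and CUP1-2 had identical entries and cannot be told apart. Over 11 genes of phosphate uptake and signalling, the median TE change was 0.03, and the acid phosphatase PHO5 had the lowest mRNA change, -0.8. PHO5 entered in mRNA through wild-type TIF1, as its mRNA abundance in tif1-ts was below 100. Over 11 sulfur and methionine genes the median TE change was -0.11. SAM2, which makes S-adenosylmethionine, had changes of -1.1 in mRNA and -1.10 in footprints, and the methionine synthase MET6 had a footprint change of -1.35. These were the 2 members at least 2-fold lower in footprints, against 1.63% of all genes. In mRNA SAM2 was the 1 member at least 2-fold lower, against 1.59%. Of 9 measured auxotrophic marker genes none differed 2-fold in any measure, with mRNA changes between -0.6 in ADE2 and 0.3 in LYS2.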
